A study of Mus musculus with 26 samples.

Results

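The comparison described here is between CD34- CD103- EML cells labelled Epo and CD34- CD103- cells without that label. It uses 7 of the 26 samples of the series, 3 labelled Epo (replicates 9, 10 and 11) and 4 without it (replicates 1, 2, 3 and 4), chosen by their labels alone. EML is an established mouse line of blood progenitors that grows in stem cell factor and can give erythroid, myeloid and lymphoid cells. All 7 samples are total RNA of cells kept in IMDM (Iscove's medium) with horse serum and medium conditioned with stem cell factor, separated by flow cytometry, and measured on 1-colour Agilent arrays. CD34 is a surface protein of early progenitors, and CD103 is the integrin alpha E chain, encoded by Itgae. According to the labels the CD34- CD103- fraction was put through erythroid differentiation driven by erythropoietin (Epo). For Epo, neither dose nor exposure time nor any second sort is stated in the labels. EML is 1 line, and nothing in the labels says whether the replicates came from separate cultures, so the p-values below measure the spread between these samples, which may be technical. The 4 CD34+ CD103- samples of the same array set (replicates 5 to 8) entered the fit and are given as levels for orientation. For a second comparison, 3 samples of Ediff cells (negative for CD34 and cKit, obtained by letting the EryCP fraction differentiate with Epo) and 3 of the repeated EryCP fraction were used.

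Epo is the hormone that keeps red cell precursors alive and dividing. It binds the Epo receptor (Epor), which acts through the kinase Jak2 and the transcription factor Stat5, and the genes Cish, Socs3 and Pim1 are known targets of this route. Cish and Socs3 are feedback inhibitors, and Pim1 is a kinase that favours survival. Erythroid maturation itself is marked by the transcription factors Gata1 and Klf1, the globins, the heme synthesis enzymes and the proteins of the red cell membrane.

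A level below is the log2 of the processed signal minus that of the array's 75th percentile, so 0 is the level of a fairly bright probe and levels of different probes are not compared. A difference is the level with Epo minus that without it, given with the standard error of a limma fit over 11 arrays. A gene was called, and is said to have risen or fallen, where its p-value, adjusted over all genes tested by the Benjamini-Hochberg method, was below 0.05. In bulk RNA, fewer cells of a type and less RNA per cell cannot be told apart.

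The cells were first checked against their labels. Cd34, the gene of the sorted surface protein, had levels of 5.17, 5.18, 4.59 and 5.25 in replicates 1 to 4 without Epo and 5.48, 5.87 and 5.89 in replicates 9 to 11 with it. All Epo samples lay above all samples without Epo, but the difference of 0.70 ± 0.17 did not pass the test (limma adjusted p = 0.0644), and both groups lay below the CD34+ CD103- mean of 6.83 ± 0.14 (SD, n = 4). Itgae differed by -0.50 ± 0.14 (limma adjusted p = 0.104) and Kit, the stem cell factor receptor, by -0.35 ± 0.12 (limma adjusted p = 0.185). Ly6a, which encodes the stem cell antigen Sca1, fell by 1.03 ± 0.18 on the log2 scale (limma adjusted p = 0.0126). Its levels were 3.17, 3.51, 2.97 and 3.33 without Epo against 1.77, 2.54 and 2.32 with it. That call was lost with the slide as a block, on the slides that held both groups, and in a fit of these 7 arrays alone. The genes that report Epo signalling or red cell maturation did not show the label: none of Cish, Socs3, Pim1 or the 7 measured globin genes was called higher in the Epo samples (values below). The samples are therefore called by their labels throughout.

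The 75th percentile of signal in the 7 arrays lay between 757.89 and 1099.6, from 84.14% to 87.11% of the spots were well above background, and no spot was saturated. The lowest percentile belonged to Epo replicate 10, which also had the most spots marked as outliers by the scanner software, 446 against 48 to 224 on the other 6 arrays. Across genes, arrays correlated at 0.9893 to 0.9961 within the Epo samples, 0.9843 to 0.9961 within those without Epo and 0.9805 to 0.9915 between them, as a description, since genes are not independent replicates. The arrays lay on 3 slides. Slide 1 held replicate 1 without Epo and Epo replicates 9 and 11, slide 2 held replicate 3 without Epo and Epo replicate 10, and slide 3 held replicates 2 and 4 without Epo.

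The deepest changes with Epo were falls, and among them were genes known from mast cells (Tpsg1, Cma2, Tpsb2) and neutrophils (S100a8, S100a9, Lcn2). Of 27362 genes tested, 710 were called, or 2.59%: 525 were lower with Epo (1.92%) and 185 were higher (0.676%). The falls were also the deeper changes. Among them 182 were at least 2-fold, 58 at least 4-fold, 29 at least 8-fold and 17 at least 16-fold, whereas 4 of the rises reached 2-fold and 1 reached 4-fold (5.53-fold, a probe with no gene name here). All 710 called genes had groups that did not overlap, which was true of 5234 of all genes tested (19.1%).

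The split between rises and falls depended on the scaling, and the number of calls on single arrays. Genes higher with Epo made up 26.1% of the calls with the 75th percentile, but 2.29% (12 of 523 calls) when the arrays were scaled on the spike-in probes, which moved the median difference of all genes from 0.077 to -0.133. With the slide as a block 901 genes were called, and 32.9% of these were higher with Epo. Leaving out replicate 2, 3 or 4 without Epo gave 449, 464 and 438 calls, leaving out Epo replicate 9, 10 or 11 gave 394, 378 and 338, and leaving out replicate 1 gave 765. On the 2 slides that held both groups the fit called 381 genes, 65 higher and 316 lower.

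**Figure D1:**
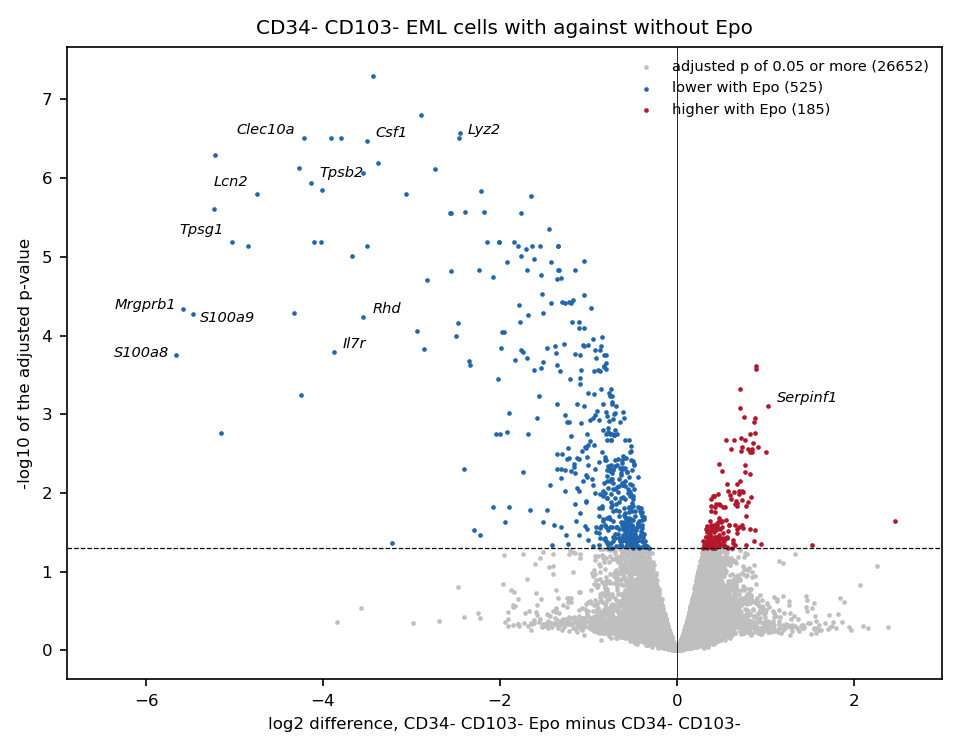
Log2 difference between CD34- CD103- Epo and CD34- CD103- samples (horizontal axis) against -log10 of the adjusted p-value (vertical axis), with 1 point per gene and the dashed line at an adjusted p of 0.05. The 525 genes lower with Epo reach -5.66 (S100a8), while Serpinf1, at 1.03, is the named gene highest among the 185 higher with Epo.

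Mast cell genes fell most widely. Mast cells store proteases in granules, chiefly tryptases (Tpsb2, Tpsg1) and chymases (among them Cma1, Cma2 and Mcpt4), together with histamine, which is made by Hdc. Of 29 measured genes of mast cells and basophils, 19 fell and none rose, against 1.92% lower and 0.676% higher among all genes tested. The same shares stand beside every such count below. The median difference of the 29 was -0.87, beside 0.077 over all genes.

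Promoters of a tryptase and a chymase gene that fell are shown because mast cell and erythroid genes alike are known to be bound by GATA factors, and Gata1 and Gata2 were themselves measured. The windows run from 250 bases before to 30 bases after the annotated start, on the gene's own strand, from RefSeq on build GRCm38.p6: Tpsg1 at chr17:25369023-25369302, plus strand (the first of 2 annotated starts), and Mcpt4 at chr14:56062281-56062560, minus strand. Capitals mark AGATAA or TGATAA on either strand.
Tpsg1: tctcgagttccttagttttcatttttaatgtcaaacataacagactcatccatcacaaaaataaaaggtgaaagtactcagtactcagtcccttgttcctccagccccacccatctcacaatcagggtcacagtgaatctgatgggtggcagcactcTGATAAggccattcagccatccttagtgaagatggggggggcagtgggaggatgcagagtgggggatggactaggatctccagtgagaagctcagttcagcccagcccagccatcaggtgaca
Mcpt4: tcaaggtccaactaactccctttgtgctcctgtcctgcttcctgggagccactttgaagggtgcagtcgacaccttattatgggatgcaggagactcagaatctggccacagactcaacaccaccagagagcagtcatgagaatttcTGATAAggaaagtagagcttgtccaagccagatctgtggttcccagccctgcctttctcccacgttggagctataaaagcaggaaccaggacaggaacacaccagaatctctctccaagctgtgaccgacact

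Each of these 2 windows held 1 match, TGATAA, at -93 from the start in Tpsg1 and -103 in Mcpt4. Of the 19 mast cell genes that fell, 14 had a promoter in the table and 8 of these held AGATAA or TGATAA in at least 1 start's window, against 20.3% of the 27025 genes in the table counted the same way (17.9% of its 32851 windows). A match describes the letters in the window and does not show a bound site.

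Tpsb2, a mast cell tryptase, had levels of 2.01, 1.75, 1.86 and 1.67 without Epo and -2.10, -2.22 and -2.62 with it. The groups stood far apart, with a fall of 4.14 ± 0.19 on the log2 scale, or 17.6-fold (limma adjusted p = 1.15e-06). Tpsg1, a tryptase held in the membrane, had levels of 2.40, 2.16, 2.21 and 2.23 without Epo and -2.11, -2.60 and -3.62 with it, a 32.7-fold fall (18.3-fold under normexp background correction). Within slide 1 the differences were -4.37 for Tpsb2 and -5.27 for Tpsg1, and within slide 2 they were -4.08 and -4.82, so each slide alone showed falls of like size.

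Among chymases, Cma2 fell from 5.74, 5.65, 5.68 and 5.57 to 1.74, 0.56 and 0.12, or 28.8-fold. Mcpt4, a chymase of connective tissue mast cells, fell from 7.30, 7.59, 7.49 and 7.48 to 4.23, 3.70 and 3.47, or 12.7-fold. Even so, with Epo all 3 samples kept Mcpt4 well above the 75th percentile of their array, and above the CD34+ CD103- mean of 0.48 ± 0.44 (SD, n = 4). All 7 protein-coding genes that RefSeq lists in a row from Cma1 to Mcpt8 (Cma1, Cma2, Mcpt1, Mcpt2, Mcpt9, Mcpt4 and Mcpt8) were measured and fell. Their probes may cross-hybridise, since these are close paralogs, and the 7 differences are not 7 independent observations. The row was chosen after its values were seen.

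Mrgprb1, a receptor of the MAS-related family, fell from -0.69, -0.62, -1.08 and -0.82 to -5.69, -5.74 and -7.72, the second largest fall of a named gene. It was well above background in 2 of the 3 Epo samples, so its 47.9-fold difference rests partly on dim spots. Under normexp background correction the smallest fall among its alternatives was obtained, -2.50.

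Not all mast cell genes were called, and the genes of this paragraph were chosen after their values were seen. Cpa3, the mast cell carboxypeptidase, had levels of 8.20, 8.19, 8.07 and 8.15 without Epo and 7.91, 8.04 and 8.05 with it, a difference of -0.15 ± 0.08 that did not pass the test (limma adjusted p = 0.383). Gzmb, a granule protease of mast cells and killer cells, differed by 0.16 ± 0.09 (limma adjusted p = 0.424), and Mitf, a transcription factor of mast cells, by -0.07 ± 0.08 (limma adjusted p = 0.711). Hdc fell by 2.55 ± 0.14 on the log2 scale, and Ms4a2, the beta chain of the IgE receptor, by 1.01 ± 0.16. Fcer1a, the receptor's alpha chain, differed by -0.39 ± 0.20 (limma adjusted p = 0.374). The summed linear level of the 29 genes, in units of the array's 75th percentile, was 793.3 to 876.9 with Epo and 1410 to 1516 without it.

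**Figure D2:**
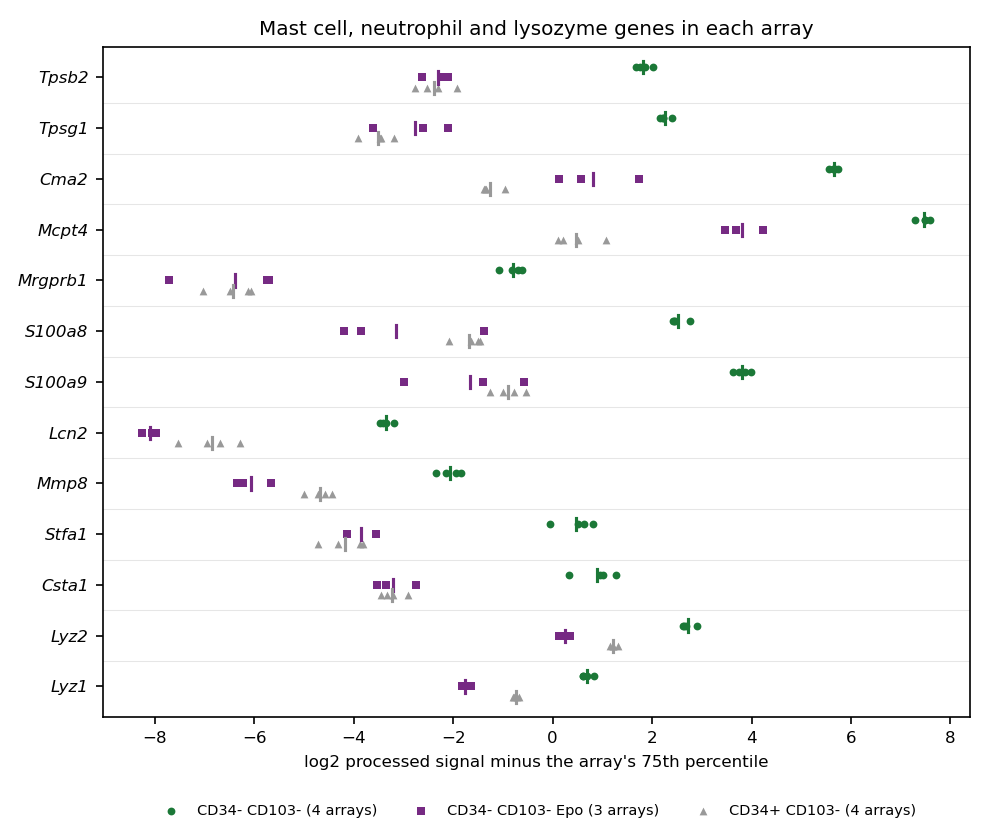
Levels (log2 processed signal minus the array's 75th percentile, horizontal axis) of mast cell, neutrophil and lysozyme genes, with 1 point per array and a bar at each group's mean. The 3 Epo samples (squares) lie below the 4 samples without Epo (circles) for every gene drawn, and Stfa1 has no value in Epo replicate 11.

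Neutrophil genes fell in part, and calprotectin furthest. S100a8 and S100a9 encode the 2 chains of calprotectin, a calcium- and zinc-binding protein abundant in neutrophils. Of 25 measured genes of neutrophil granules and related proteins, 9 fell and none rose, against 1.92% and 0.676% of all genes tested. Their median difference was -0.20. Genes of the neutrophil's secondary granules were not all among them, as given below.

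S100a8 had levels of 2.44, 2.46, 2.76 and 2.43 without Epo and -3.85, -1.38 and -4.19 with it. The Epo samples varied far more than the others (SD 1.53 against 0.16), Epo replicate 10 being the highest, yet each lay more than 3 units below every sample without Epo. The fall was 5.66 ± 0.53 on the log2 scale, or 50.7-fold (limma adjusted p = 0.000176), the largest of all called genes, and was 26.4-fold under normexp background correction. S100a9 went from 3.88, 3.63, 4.00 and 3.76 to -2.99, -0.58 and -1.41, a 44.5-fold fall with the same Epo replicate highest. Within slide 1, S100a8 differed by -6.46 and S100a9 by -6.08, and within slide 2 by -4.14 and -4.58. The CD34+ CD103- means were -1.67 ± 0.29 for S100a8 and -0.89 ± 0.31 for S100a9 (SD, n = 4).

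Lcn2 (lipocalin, an iron-siderophore binder of neutrophil granules) had levels of -3.42, -3.34, -3.46 and -3.18 without Epo and was not well above background on any of the 3 Epo arrays, which makes it at least 9.41-fold lower with Epo (limma adjusted p = 1.57e-06, measured mean -8.10 against -3.35). Such a bound sets the mean of the brighter group against the lowest signal that was well above background on the dim arrays. Mmp8, the neutrophil collagenase, fell from between -2.34 and -1.84 to between -6.35 and -5.66, and was well above background on 2 of 3 Epo arrays. Under normexp background correction Mmp8 was 3.08-fold lower. Lcn2 was 1.86-fold lower there, less than its bound, and was no longer called. By contrast Ltf (lactoferrin), Camp (cathelicidin) and Ngp, secondary granule genes chosen after their values were seen, differed by 0.49 ± 0.24, 0.15 ± 0.37 and 0.21 ± 0.58 and did not pass the test (limma adjusted p = 0.335, 0.856 and 0.873). The summed level of the list was 12.95 to 15.28 with Epo and 35.16 to 39.22 without. A sum weighs bright members most, S100a8 and S100a9 (means 2.52 and 3.82 without Epo) among them, and 16 of the 25 genes were not called.

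The stefin A genes, a mouse cluster of small cysteine protease inhibitors found in neutrophils, fell as a block. RefSeq lists 12 protein-coding genes from Csta1 to Stfa3, of which 8 were measured and 7 fell, Stfa3 being the exception at -0.86 ± 0.20 (limma adjusted p = 0.0514). Csta1 went from 0.96, 0.32, 1.28 and 1.01 without Epo to -3.34, -2.74 and -3.54 with it, or 17.1-fold lower. Stfa1 went from 0.52, -0.05, 0.81 and 0.63 to -4.14 and -3.55 in Epo replicates 9 and 10, a fall of 4.32 ± 0.31 on the measured spots, and had no usable spot in Epo replicate 11. Cstdc5 fell 16.2-fold, and Cstdc4 fell too but was well above background on 1 of 3 Epo arrays. Under normexp background correction the falls were 10.5-fold for Csta1, 10.2-fold for Stfa1, 9.72-fold for Cstdc5 and 3.24-fold for Cstdc4. In each of these 4 genes replicate 2 was the lowest of the samples without Epo. Probes for such near-identical genes may share transcripts, and the members cannot be told apart with certainty.

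Promoters of S100a8 and of the stefin genes Stfa1 and Csta1 are shown because these genes fell together and are known as myeloid genes, whose promoters are commonly bound by the ETS factor PU.1 (Spi1), for which GAGGAA is a core motif. The windows are those of RefSeq on GRCm38.p6, from 250 bases before to 30 after the start: S100a8 at chr3:90668821-90669100, plus strand, Stfa1 at chr16:36276898-36277177, plus strand, and Csta1 at chr16:36131160-36131439, minus strand. Capitals mark GAGGAA on either strand, so that TTCCTC is its reverse complement.
S100a8: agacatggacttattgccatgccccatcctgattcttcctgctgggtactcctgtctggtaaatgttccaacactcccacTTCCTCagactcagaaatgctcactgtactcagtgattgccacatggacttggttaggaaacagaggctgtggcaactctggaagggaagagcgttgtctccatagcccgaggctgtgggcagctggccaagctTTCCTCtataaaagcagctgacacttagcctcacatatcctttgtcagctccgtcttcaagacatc
Stfa1: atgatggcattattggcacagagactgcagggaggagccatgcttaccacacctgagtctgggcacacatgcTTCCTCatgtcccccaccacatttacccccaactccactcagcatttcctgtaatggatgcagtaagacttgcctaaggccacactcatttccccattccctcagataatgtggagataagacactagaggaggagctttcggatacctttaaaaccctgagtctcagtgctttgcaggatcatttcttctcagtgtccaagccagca
Csta1: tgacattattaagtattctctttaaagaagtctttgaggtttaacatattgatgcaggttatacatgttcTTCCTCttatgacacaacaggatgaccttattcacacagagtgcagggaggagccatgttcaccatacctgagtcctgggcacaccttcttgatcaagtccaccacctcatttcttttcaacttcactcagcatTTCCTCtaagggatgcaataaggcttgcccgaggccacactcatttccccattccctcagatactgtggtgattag

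S100a8 and Csta1 each held 2 matches and Stfa1 held 1. The stefin genes Stfa1, Stfa2, Csta1, Cstdc4 and Cstdc5 each held at least 1. So did 5 of the 7 neutrophil genes that fell and had a promoter in the table, and Stfa1 and Stfa2 are in both counts. Among all genes in the table counted the same way, 28.7% held at least 1. The stefin promoters are copies of one another and do not count as separate cases. Spi1 itself had levels of -1.56, -1.88, -1.75 and -2.03 without Epo and -1.73, -1.53 and -1.49 with it. The groups overlapped, and the difference of 0.22 ± 0.12 did not pass the test (limma adjusted p = 0.405).

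Both lysozyme genes fell, to nearly the same extent. Lysozyme is the bacterial cell wall enzyme of macrophages and granulocytes. Lyz2 had levels of 2.64, 2.62, 2.69 and 2.90 without Epo and 0.35, 0.13 and 0.26 with it, a 5.53-fold fall (limma adjusted p = 3.11e-07). Lyz1 went from 0.61, 0.62, 0.69 and 0.83 to -1.64, -1.83 and -1.83, a 5.47-fold fall. The 2 genes are near copies whose probes can share transcripts. In both, the Epo samples also lay below the CD34+ CD103- means of 1.22 ± 0.07 for Lyz2 and -0.74 ± 0.05 for Lyz1 (SD, n = 4).

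Few other genes of macrophages and monocytes were called. Of 32 measured, 6 fell and 1 rose, with a median difference of -0.086, and the list's summed level was 128.6 to 136.7 with Epo and 129.1 to 135 without. Beside the lysozymes these were Ctss (cathepsin S, which fell by 1.19 ± 0.16 on the log2 scale), the surface antigen Ly6c2 (by 0.83 ± 0.16), Adgre1 (a surface receptor of macrophages) and F13a1 (a chain of coagulation factor XIII), the last 2 chosen after their values were seen. Csf1r, the receptor that defines the lineage and chosen after its value was seen, differed by -0.08 ± 0.22 (limma adjusted p = 0.866). Hmox1, the heme-degrading enzyme, rose by 0.70 ± 0.14. The calls of Ly6c2 and Hmox1 were each lost without replicate 2 or 4 without Epo or Epo replicate 9 or 11, and that of Hmox1 also without replicate 3. Both were lost as well on the slides that held both groups and in a fit of the compared arrays alone. That of Hmox1 was lost with scaling on the spike-in probes, and that of Ly6c2 with the slide as a block.

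Myeloperoxidase went the other way. Mpo, the main enzyme of primary granules, had levels of 7.59, 7.35, 7.36 and 7.39 without Epo and 7.94, 8.28 and 8.19 with it, a rise of 0.72 ± 0.11 (limma adjusted p = 0.00698). The groups did not overlap, and the CD34+ CD103- mean was 8.70 ± 0.14 (SD, n = 4). The call remained with scaling on the spike-in probes and was lost on the slides that held both groups. Prss57, another primary granule protease, rose by 0.61 ± 0.11, a call lost with scaling on the spike-in probes and without Epo replicate 10 or 11, and Prtn3 (proteinase 3) fell by 0.93 ± 0.09, a call lost under normexp background correction (-0.50). The other 9 of 12 measured primary granule genes were not called.

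Secreted signals of inflammation fell in a small set. Of 25 chemokines and inflammatory cytokines, 7 fell and none rose, with a median difference of 0.003. Csf1, the growth factor of macrophages, went from 0.19, 0.43, 0.73 and 0.66 to -2.96, -2.96 and -3.09, or 11.4-fold lower (limma adjusted p = 3.4e-07; 7.15-fold under normexp). The monocyte attractants Ccl7 and Ccl2 fell 11.3-fold and 3.79-fold, Ccl4 fell 3.8-fold (2.28-fold under normexp), and the cytokines Il6 and Il4, chosen after their values were seen, fell by 0.87 ± 0.16 and 0.67 ± 0.10. Ccl5 fell by 1.95 ± 0.38, with Epo levels spread from -2.24 to -0.29, and lost its call in 6 alternatives, among them the 7 arrays alone and the omission of replicate 2, 3 or 4 without Epo or of Epo replicate 9.

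Interferon-induced genes also fell in part. Of 21 measured, 5 fell (Ifit1, Cmpk2, Isg15, Oas2 and Stat2) and none rose, and the median difference was -0.27. Ifit1, an antiviral RNA-binding protein, fell by 1.74 ± 0.27, but it was well above background on 1 of 3 Epo arrays. Stat2, a transcription factor of the interferon route, had levels of 1.08, 1.00, 1.00 and 1.02 without Epo and 0.38, 0.50 and 0.70 with it. Under normexp background correction Ifit1, Cmpk2, Isg15 and Oas2 were not called, and Oas2 turned to 0.207, whereas Stat2 kept its call. Leaving out Epo replicate 10 lost the calls of Stat2, Cmpk2 and Isg15, leaving out Epo replicate 9 those of Stat2 and Isg15, and Epo replicate 11 or replicate 4 without Epo that of Isg15. Oas2 was not called without replicate 2, and its probe was well above background on 0 of 3 Epo arrays and on 3 of 4 without Epo. A second probe of Cmpk2 differed by 0.0742.

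Other deep falls among the named genes belonged to receptors and surface proteins. Clec10a, a galactose-binding lectin, fell from 4.09, 4.41, 4.34 and 4.25 to 0.43, -0.05 and -0.22, or 18.6-fold (limma adjusted p = 3.11e-07). Il7r, the interleukin-7 receptor chain of lymphoid cells and their progenitors, fell from -1.49, -1.13, -1.32 and -1.07 to -4.95, -5.07 and -5.38, or 14.7-fold. Vwf, the von Willebrand factor of platelets and endothelium, fell from 1.61, 1.51, 1.85 and 1.41 to -1.01, -1.04 and -0.81, or 5.85-fold. None of these 3 lost its call in any alternative, but Il7r was 4.14-fold lower under normexp background correction, and its second probe differed by -1.97.

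Few other genes of the same lineages were called. Of 23 megakaryocyte and platelet genes Vwf was the 1 that fell. Among 16 T and NK cell genes, Il7r, Cd3g and Tcf7 fell and Lck rose, but the calls of Cd3g, Tcf7 and Lck were each lost in at least 7 alternatives, among them the omission of Epo replicate 9 or 11. Leaving out replicate 1 lost Cd3g, replicate 2 or 3 Cd3g and Lck, replicate 4 Tcf7 and Lck, and Epo replicate 10 Cd3g and Lck. The P2Y receptor gene P2ry10b and the orphan receptor gene Gpr176 were not well above background on any Epo array and were at least 12.9-fold and at least 4.6-fold lower (limma adjusted p = 0.00174 and 7.45e-07, measured means -8.05 against -2.90 and -8.66 against -4.39). Under normexp background correction P2ry10b differed by -1.31, or 2.49-fold, and Gpr176 by -0.57 and was no longer called, both under these bounds. Wfdc17, a secreted protein of the whey acidic family, fell from between -1.82 and -1.52 to between -7.39 and -6.06, with 1 of 3 Epo arrays well above background, and was 4.5-fold lower under normexp. None of 10 eosinophil genes and none of 12 B cell genes was called by limma (0 and 1 at an unadjusted p under 0.05), and of 15 genes of dendritic cells and MHC class II 1 rose, Itgax (by 0.77 ± 0.10, a call lost with scaling on the spike-in probes).

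No globin, erythroid transcription factor or red cell membrane gene was called higher with Epo. None of the 7 measured globin genes was called by limma in either direction (at an unadjusted p under 0.05, 1 was higher and 2 were lower), and their median difference was 0.068. Hbb-bt, a beta globin gene, had levels of 5.99, 5.41, 5.80 and 5.63 without Epo and 6.43, 6.05 and 6.48 with it, and its difference of 0.61 ± 0.15 did not pass the test (limma adjusted p = 0.0677). Hba-a1, an alpha globin gene, had levels of 0.07, -0.91, -0.00 and -0.47 without Epo and -0.56, -1.17 and -0.98 with it, a difference of -0.58 ± 0.23 (limma adjusted p = 0.246). These 2 globins and Alas2 were chosen after their values were seen, and paralogs of the globins can share their probes. Of 18 heme synthesis genes none fell and 1 rose, Hmox1, which breaks heme down and lost its call with scaling on the spike-in probes. Alas2, which starts heme synthesis in red cells, differed by -0.30 ± 0.15 (limma adjusted p = 0.36), and of 17 iron genes 1 rose, the mitochondrial iron carrier Slc25a37 (by 0.37 ± 0.08), whose call was lost in 16 of 19 alternatives, among them the omission of any 1 of the 7 arrays.

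Red cell membrane and blood group genes fell where they changed. Of 26 measured, 6 fell and none rose, with a median difference of -0.15. Kel, the Kell antigen, went from 0.38, -0.12, 0.37 and -0.01 without Epo to -1.33, -1.40 and -1.43 with it, a 2.91-fold fall (limma adjusted p = 0.00026). Ermap, the Scianna antigen, went from -0.62, -1.01, -0.17 and -0.90 to -2.60, -3.18 and -3.26, a 5.07-fold fall (3.07-fold under normexp). Both lay well apart from the CD34+ CD103- means, with the Epo samples between. Those means were -5.30 ± 0.22 for Kel and -6.56 ± 0.26 for Ermap (SD, n = 4). Ermap was not well above background on any CD34+ CD103- array, so its mean there rests on dim spots.

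Rhd, the Rhesus antigen, was not well above background on any Epo array and was at least 4.76-fold lower (limma adjusted p = 5.82e-05, measured mean -7.88 against -4.33), a call lost under normexp background correction. Under that correction Rhd was 1.34-fold lower, less than its bound. Tspan33 fell by 1.31 ± 0.20 by its brighter probe, a call lost under normexp, while its other probe differed by -0.23 and was not called. Car1, a red cell carbonic anhydrase, fell by 1.03 ± 0.21. The call of Car1 was lost without replicate 1 or 3 or without any 1 Epo array. Car1 had levels of 3.11, 2.56, 3.17 and 2.61 without Epo against 2.03, 1.70 and 1.75 with it. In Kel, Ermap, Tspan33 and Car1 replicates 1 and 3 without Epo were higher than replicates 2 and 4, and slide 3 held replicates 2 and 4. Within slides 1 and 2, Kel differed by -1.76 on each. Slc4a1, the band 3 anion exchanger, differed by 0.09 ± 0.12 and was chosen after its value was seen.

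The regulators of the lineage differed by less. Gata1 had levels of 1.14, 0.72, 1.06 and 0.68 without Epo and 0.38, 0.13 and 0.17 with it, a fall of 0.68 ± 0.14 (limma adjusted p = 0.0275) that was lost in 5 alternatives, 4 of which left out 1 array (replicate 3 without Epo, or Epo replicate 9, 10 or 11). Klf1 differed by -0.82 ± 0.29 (limma adjusted p = 0.198), from 0.37, -0.28, 0.25 and -0.30 to -0.70, -0.86 and -0.87. Gata2, which precedes Gata1 in erythroid commitment and also serves mast cells, fell by 0.57 ± 0.12, a call lost in 11 of 19 alternatives, among them the omission of any 1 of the 7 arrays. Of 20 erythroid transcription factors Gata1 was the only one called.

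Among 27 regulators of progenitors and myeloid cells, 5 fell and 1 rose. Gfi1, a repressor needed by neutrophil and lymphoid precursors, went from -2.37, -2.02, -2.26 and -2.13 to -4.29, -3.66 and -3.96, a 3.42-fold fall (limma adjusted p = 6.65e-05) that was 1.97-fold under normexp. Id2, an inhibitor of helix-loop-helix factors, went from 3.95, 4.13, 4.24 and 4.23 to 2.58, 2.54 and 2.44, a 3.06-fold fall. Both calls remained in all 19 alternatives. Cebpb fell by 1.00 ± 0.15, though its second probe differed by -0.37, and Egr1, an immediate early factor, fell by 1.14 ± 0.22. Cebpa, the factor of granulocyte commitment, rose by 0.43 ± 0.10 (limma adjusted p = 0.0497), a call lost in 14 of 19 alternatives, among them the omission of any 1 array other than replicate 1 without Epo. The call of Egr1 was likewise lost when any array but that one was left out.

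A single gene of the Epo route was called, and it fell. Of 32 measured genes of Epo signalling and feedback, Cish fell and none rose (at an unadjusted p under 0.05, 4 were higher and 5 lower), and the median difference was 0.043. The Cish promoter is shown because Stat5 is known to act through paired TTCNNNGAA motifs there. The window is RefSeq's on GRCm38.p6, from 250 bases before to 30 after the start, at chr9:107296409-107296688, plus strand. Capitals mark TTCNNNGAA, a motif that reads the same on both strands.
Cish: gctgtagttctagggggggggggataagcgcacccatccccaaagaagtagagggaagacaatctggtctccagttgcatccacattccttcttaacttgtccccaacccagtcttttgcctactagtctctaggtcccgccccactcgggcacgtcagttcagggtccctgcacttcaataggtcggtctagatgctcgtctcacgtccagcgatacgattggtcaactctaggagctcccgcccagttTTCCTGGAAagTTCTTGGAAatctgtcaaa

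The window held 2 matches, beginning at bases 1 and 12 after the start, whereas 7.83% of all promoter windows held at least 1. Cish levels were 0.13, 0.24, 0.28 and 0.37 without Epo and -0.07, -0.23 and -0.24 with it. The groups did not overlap, and the fall of 0.44 ± 0.09 passed the test (limma adjusted p = 0.0238), but it was lost in 9 of 19 alternatives, among them the omission of replicate 2, 3 or 4 without Epo or of Epo replicate 10 or 11. The CD34+ CD103- mean was -0.97 ± 0.07 (SD, n = 4).

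The other Epo targets did not pass the test. Socs3 had levels of -0.12, 0.29, -0.22 and 0.11 without Epo and -0.27, 0.13 and -0.12 with it, a difference of -0.10 ± 0.16 with overlapping groups (limma adjusted p = 0.774). Pim1 had levels of -1.42, -1.69, -1.43 and -1.51 without Epo and -1.35, -1.13 and -1.36 with it, a difference of 0.23 ± 0.09 (limma adjusted p = 0.239). Epor went from 1.58, 1.22, 1.70 and 1.10 to 0.92, 0.85 and 0.88, a difference of -0.52 ± 0.19 (limma adjusted p = 0.197). Every Epo sample lay below every CD34- CD103- sample without Epo for Epor, and the difference was called with the slide as a block and on the slides that held both groups. For Socs3 and Pim1 a missed threshold does not show that the genes were unaffected.

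**Figure D3:**
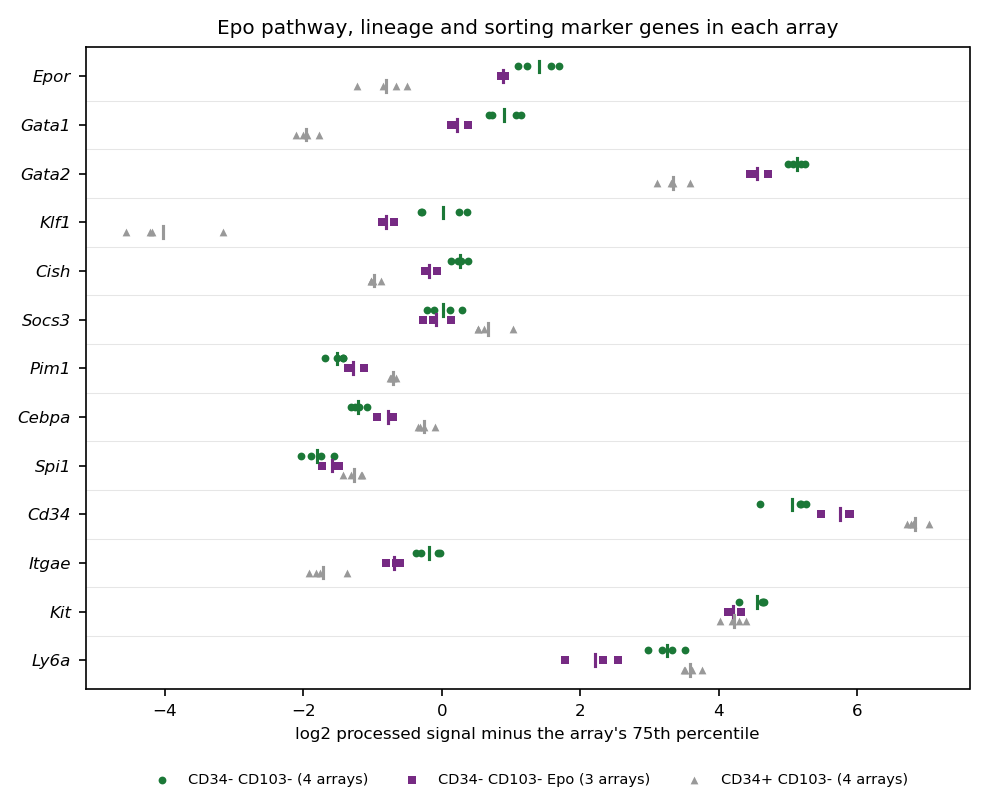
Levels (log2 processed signal minus the array's 75th percentile, horizontal axis) of Epo pathway, lineage and sorting marker genes, with 1 point per array and a bar at each group's mean. Gata1, Gata2, Cish and Ly6a are lower in all 3 Epo samples (squares) than in the 4 samples without Epo (circles), and Socs3, Spi1 and Kit overlap.

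The genes that rose did so by small amounts. Serpinf1, an inhibitor of blood vessel growth, had levels of 0.29, -0.00, -0.08 and 0.24 without Epo and 1.17, 0.98 and 1.29 with it, a rise of 1.03 ± 0.12, or 2.05-fold (limma adjusted p = 0.000776). Slco3a1, an organic anion transporter, went from 3.45, 3.64, 3.35 and 3.59 to 4.39 and 4.64 in Epo replicates 9 and 11, a rise of 1.01 ± 0.13, with no usable spot in replicate 10. Myct1, a Myc target, went from -0.35, -0.18, -0.47 and -0.35 to 0.49, 0.56 and 0.57. Each group of Epo samples stood clear of the others, and the 3 genes had CD34+ CD103- means of 1.5, 5.59 and 1.09, above the Epo samples' means of 1.15, 4.52 and 0.54.

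Of the 15 largest named rises, Serpinf1, Slco3a1, Pglyrp1 (a peptidoglycan-binding protein), Myct1, Pde4b (a cyclic AMP phosphodiesterase) and Abca4 kept their call in every alternative that measured them, scaling on the spike-in probes included. Thsd1, Kctd14, Matn2, Afp, Ass1, Ly6d and Rfx3 lost it with that scaling. Ly6d and Rfx3 also lost it without replicate 2 or 4 without Epo or Epo replicate 9 or 11, as did Rfx3 without replicate 3 and Ly6d without Epo replicate 10. H2ap lost it on the slides that held both groups and without any 1 of 6 of the 7 arrays, Epo replicate 9 being the exception. Islr rose by 0.90 ± 0.09 by its brighter probe, while its other probe differed by -0.40, which became the measured value in a fit of the 7 arrays alone. The probes of Rfx3 were called in both directions (-0.77 and 0.88), so no direction is given for that gene.

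Antioxidant genes were among the rises. Of 18 measured, 3 rose and none fell (0.676% and 1.92% of all genes), 17 of 18 differences were above 0, and the median was 0.33. Gclc, the rate-limiting enzyme of glutathione synthesis, went from 2.55, 2.65, 2.47 and 2.57 to 3.33, 3.06 and 3.22, a rise of 0.65 ± 0.09 (limma adjusted p = 0.0021). Txnrd1 (thioredoxin reductase) rose by 0.68 ± 0.14 and Srxn1 (sulfiredoxin) by 0.66 ± 0.13. All 3 calls were lost with scaling on the spike-in probes, where the list's median was 0.11 and that of all genes -0.13. Those of Txnrd1 and Srxn1 were also lost without replicate 2, 3 or 4 without Epo or Epo replicate 9 or 11.

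Few genes of growth and division were called. Of 25 S phase genes Mcm5, a helicase subunit, rose (by 0.37 ± 0.08) and none fell, and of 22 ribosome biogenesis genes Fbl, the fibrillarin gene, rose (by 0.39 ± 0.07). At an unadjusted p under 0.05 in limma, 14 S phase and 14 ribosome biogenesis genes were higher and none was lower. Over all 27362 genes tested, 4529 passed that threshold in either direction. The medians were 0.23 and 0.28, above the 0.077 of all genes, but were 0.028 and 0.064 with scaling on the spike-in probes, where both calls were lost. They were also lost without replicate 2 without Epo or any 1 Epo array, and that of Mcm5 without replicate 3 or 4 as well. None of 25 mitosis genes, 15 cell cycle inhibitors, 17 BCL2 family genes or 23 genes of cholesterol synthesis and uptake was called by limma, and at an unadjusted p under 0.05 the counts were 0, 5, 2 and 1. Of 20 immediate early genes Egr1 and the phosphatase gene Dusp2 fell, the latter from 5.71, 5.92, 5.90 and 5.87 to 5.08, 5.13 and 5.10.

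A few adhesion, stress and metabolic genes completed the lists. Cd44, a hyaluronan receptor, fell by 1.32 ± 0.13, with another of its probes at 0.16, while Cd33 fell by 0.51 ± 0.10 and Cd48 rose by 0.41 ± 0.09. Of 17 heat shock genes the mitochondrial chaperones Hspd1 and Hspa9 rose by 0.38 ± 0.08 and 0.32 ± 0.07, calls lost in 15 of 19 alternatives each, and Hspa1a fell by 1.16 ± 0.17, a call lost under normexp background correction, where it differed by -0.23. Of 22 lysosomal genes 2 fell, Ctss among them, and none rose. Of 23 glycolysis and hypoxia genes Pfkfb3, which makes the activator of glycolysis, rose by 0.42 ± 0.07, a call lost with scaling on the spike-in probes, on the slides that held both groups and with the mean of its probes. Among 31 cytokine receptors the interleukin-33 receptor Il1rl1, Il18r1, Csf2rb and Il7r fell. Without any 1 Epo array Cd48, Hspd1, Hspa9, Csf2rb, Il1rl1 and Cd33 were not called. Without Epo replicate 9 or 11 Il18r1 was not called, nor was Pfkfb3 without Epo replicate 11. Of the samples without Epo, leaving out replicate 1 lost Cd48 and Il18r1, replicate 2 lost Cd48, Hspd1, Hspa9, Il1rl1 and Cd33, replicate 3 lost Cd48, Hspd1, Hspa9, Csf2rb, Il1rl1 and Il18r1, and replicate 4 lost Hspd1, Hspa9, Il1rl1, Cd33 and Il18r1.

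**Figure D4:**
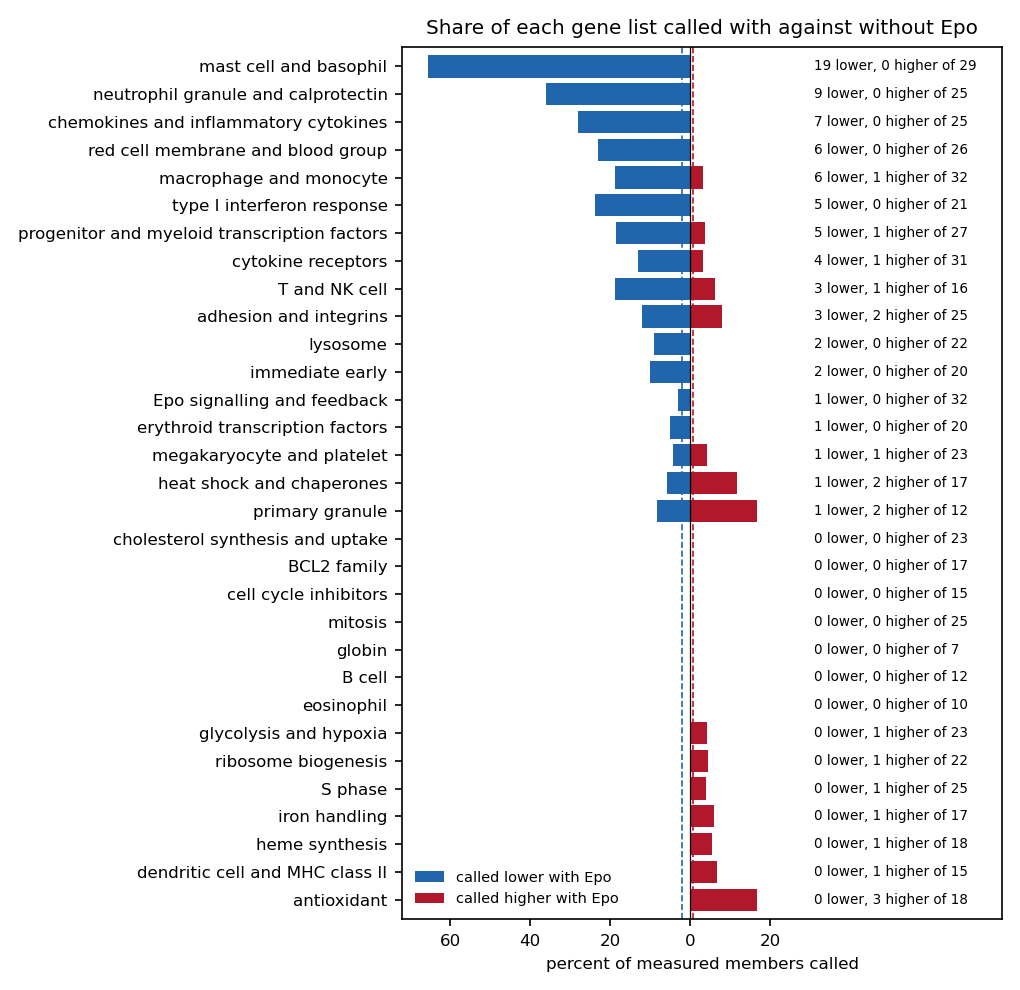
Share of the measured members of each gene list called lower (to the left) or higher (to the right) with Epo, in percent, with the counts at the right and dashed lines at the shares of all genes tested (1.92% lower, 0.676% higher). The mast cell list stands at 19 of 29 lower, and 7 lists have no called member.

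The response was then set against the series' other Epo experiment, Ediff cells minus the repeated EryCP fraction, in 1 fit over 13 arrays that tests the difference between the 2 responses. The groups of the 2 experiments share no samples, but they differ in starting fraction, sort (Ediff cells were also cKit-negative) and array set, so experiment and array set cannot be told apart. The responses differed in 10316 of 24448 genes (42.2%). Under normexp background correction that count was 862.

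For the Epo targets the gap was wide. Cish differed by -0.44 here and by 4.44 ± 0.10 in Ediff, a difference between responses of -4.88 ± 0.13 (limma adjusted p = 1.56e-10). Pim1 differed by 0.23 here and 4.5 ± 0.11 there, and Socs3 by -0.10 and 3.39 ± 0.15 (limma adjusted p = 9.26e-10 and 8.08e-08 for the difference). Epor, Klf1 and Gata1 responded by 3.13 ± 0.16, 3.04 ± 0.19 and 0.96 ± 0.13 in Ediff, against -0.52, -0.82 and -0.68 here (limma adjusted p = 7.06e-08, 2.56e-07 and 1.2e-05). By the test of the difference, all 7 globin genes were called as responding less here (median 0.068 against 4.85). So were 25 of 26 red cell membrane and blood group genes (median -0.15 against 3.91). Of 18 heme synthesis genes 14 were (median -0.044 against 2.38). In each of these last 2 lists 1 gene was called the other way. Over all 24448 genes, 6399 were called below the Ediff response and 3917 above it. The sorting markers also differed: Cd34 by 0.70 here and -7.64 ± 0.29 in Ediff, and Kit by -0.35 and -3.31 ± 0.12. Ediff cells were taken as negative for CD34 and cKit, so for Cd34 and Kit a response cannot be told apart from the sort.

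Tpsb2, S100a8, S100a9 and Lyz2 fell in both experiments. Tpsb2 differed by -4.14 here and -3.79 ± 0.35 in Ediff, and the difference between the responses did not pass the test (difference -0.35 ± 0.48, limma adjusted p = 0.563). S100a8 differed by -5.66 and -3.84 ± 0.72 (difference -1.82 ± 0.99, limma adjusted p = 0.158), S100a9 by -5.48 and -3.51 ± 0.52 (difference -1.96 ± 0.72, limma adjusted p = 0.0459). Lyz2 fell less here, -2.47 against -4.10 ± 0.23 (limma adjusted p = 0.00163), though under normexp background correction this difference turned to -1.48 and with the deposited series table it was 0.17, neither called. The call for S100a9 was lost without any 1 array other than Ediff replicate 10 or Epo replicate 10, and that for S100a8 was gained without Epo replicate 10 (difference -2.70, limma adjusted p = 0.0173). Over 28 mast cell genes measured in both, the median was -0.81 here and -4.69 in Ediff. For 20 of them the response here was called above that in Ediff, and for 2 below it. Over all 24448 genes it was called above in 3917 and below in 6399. Gata2 fell by 3.48 ± 0.14 in Ediff and by 0.57 here, and Cebpa fell by 2.11 ± 0.17 there and rose by 0.43 here (limma adjusted p = 2.11e-07 and 3.7e-06 for the difference), the call for Cebpa being lost under normexp background correction, as were those for Gata1 and Cd34.

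**Figure D5:**
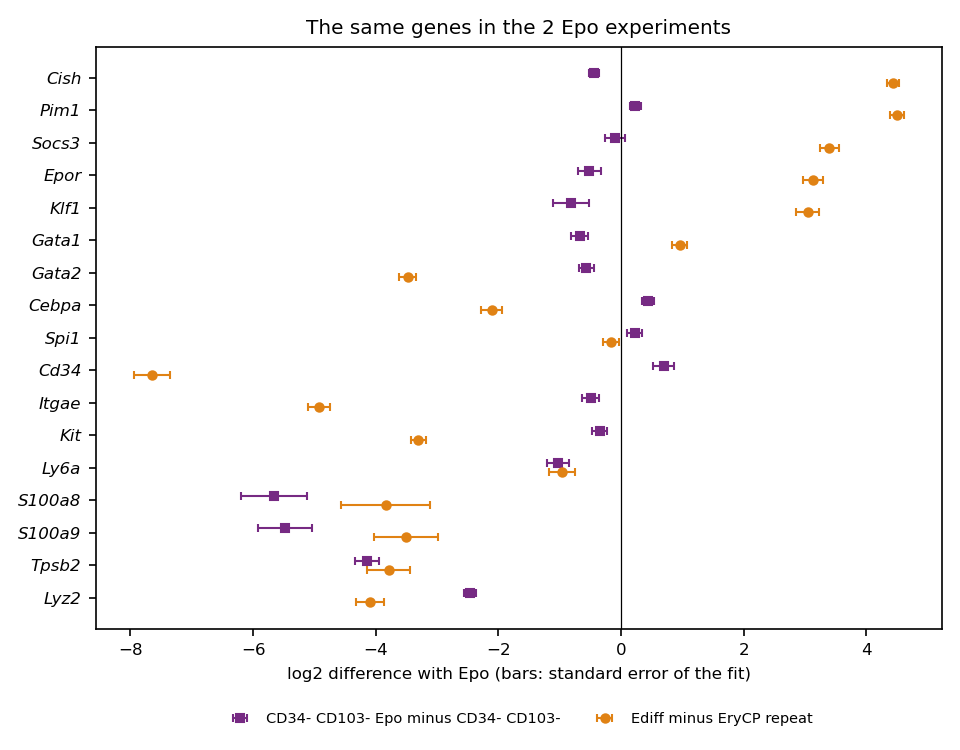
Log2 differences with Epo (horizontal axis, bars are the standard error of the fit) of 17 genes in CD34- CD103- cells (squares) and in Ediff cells against the EryCP repeat (circles). Cish, Pim1, Socs3, Epor and Klf1 lie above 3 in Ediff and between -0.82 and 0.23 in CD34- CD103- cells, and S100a8, S100a9, Tpsb2 and Lyz2 lie below 0 in both.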

How the data were processed

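RNA of 26 samples was hybridised to 1-colour Agilent arrays. The deposited scanner files hold an intensity per spot (processed signal), which the authors made with Agilent Feature Extraction (10.7.1.1 for the arrays compared here and 10.1.1.1 for Ediff and EryCP repeat, per the file headers). The deposited series table holds log2 values that correlated with the processed signal and was used as an alternative, and what scaling the authors applied to it is not given in the sources used here. Its column medians lay between 7.28 and 7.29.

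For each array, the log2 signal was set against its 75th percentile and marked spots were dropped. Spots of a probe were averaged and a probe was kept if well above background on every array of at least 1 group. The brightest probe stood for a gene, and 14103 of 41174 probes had no gene name. Gene order and promoters were taken from RefSeq tables of GRCm38.p6, not the build of the array files, and are used for names, neighbours and sequence only. Differences were fitted with limma 3.58.1 in R 4.3.3, over 11 arrays (13 for the second comparison), with Benjamini-Hochberg adjustment, and the steps were tested on simulated data. Named genes were 17 fixed genes, the 15 highest and 15 lowest called genes whose groups did not overlap, and up to 5 called members of each of 33 lists with the largest difference; any other is said to be chosen after its value was seen. The members and lists, and the markers S100a8, S100a9, Tpsb2 and Lyz2 given for this comparison, were chosen with earlier results of these data known. Alternatives were other background correction, scaling, filters, probe rules, the slide as a block and each array left out. Some results are not reported here. The number of arrays limits the precision.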

Additional observations from a re-analysis of the deposited data

Results flagged for a closer look

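In 6 of the 98 named genes checked, 1 of the 4 samples without Epo stood apart from the other 3 by most of the group's range, which chance gives in about 1 in 20 groups, so that 6 of 98 is near what chance gives. Replicate 3 had the lowest Cd34, 4.59 against 5.17 to 5.25, the highest S100a8, 2.76 against 2.43 to 2.46, and the lowest Kctd14, -4.12 against -3.83 to -3.81. Replicate 1 had the lowest Kit, 4.28 against 4.63 to 4.65, and the highest Mpo, 7.59 against 7.35 to 7.39. Replicate 4 had the highest Cd48, 4.55 against 4.30 to 4.33.

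In 13 of the 17 fixed genes the response here differed from that of Ediff cells against the EryCP repeat. The test was that of the difference itself, which called 10316 of all 24448 genes (42.2%), and 862 under normexp background correction. On the log2 scale, response here minus response in Ediff, the difference was above 0 for the sorting markers Cd34 (8.34), Itgae (4.43) and Kit (2.96), for the regulators Gata2 (2.91) and Cebpa (2.55) and for Lyz2 (1.63). It was below 0 for Cish (-4.88), Pim1 (-4.26), Klf1 (-3.86), Epor (-3.65), Socs3 (-3.50), S100a9 (-1.96) and Gata1 (-1.63). The 2 experiments differ in array set and in sort, which cannot be told apart from the response. For Cd34 and Kit the sort itself required that Ediff cells be negative for the encoded proteins.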

How the results depend on the processing

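No paired analysis was possible because the 2 groups compared share no replicate number. The slide (2 of 3 held both groups) was used as a block instead and gave 901 calls. Against 710 calls, normexp background correction gave 366, the slides that held both groups 381 and eBayes with trend and robust fitting 1095, of which 333, 319 and 678 were among the 710. The other 9 alternatives that kept the 7 arrays compared gave 520 to 901, and leaving out 1 array gave 338 (without Epo replicate 11) to 765 (without replicate 1 without Epo). Of the named genes, Oas2 turned to 0.207 under normexp, Socs3 to 0.082 on the slides that held both groups and Islr to -0.404 in the fit of the 7 arrays alone. For the difference between responses, normexp gave 862 calls, 861 of them among the 10316, leave-one-out gave 8626 to 12840, and under normexp Lyz2 turned to -1.475 and Spi1 to -0.158. The difference between responses for Ly6a, not called, turned to 0.214 with quantile normalization, 0.236 with the slide as a block, and lay between -0.234 and 0.149 when 1 array was left out. Causes were not tested. Levels of genes not well above background in the Epo samples (Lcn2, Rhd, Gpr176, P2ry10b) are bounds only. These bounds hold for the processed signal, and under normexp each of these genes differed by less than its bound.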

Other observations

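The families and genes given here were chosen after their values were seen, and no list of them was tested. Among all genes tested 1.92% fell and 0.676% rose. Paired receptors of the Pilr, Pir and Lilr families, which tune myeloid and mast cell activation, had 7 measured members, and all 7 fell (median difference -1.54, beside 0.077 over all genes). Pilra fell 5.92-fold, from a mean of 2.27 ± 0.18 (SD, n = 4) without Epo to -0.30 ± 0.18 (SD, n = 3), and Pilrb1 and Lilrb4a fell 2.53-fold and 2.91-fold; these 3 calls remained in all 19 alternatives. Pira2 fell by 2.22 ± 0.46 but lost its call in 10 alternatives, without replicate 2, 3 or 4 without Epo or any 1 Epo array among them, and Lilra6 lost it with the mean of its probes. Surface receptors of the CD200R family, found on mast and myeloid cells, fell as well: Cd200r3 by 3.44 ± 0.09 and Cd200r1 by 1.52 ± 0.12. Members of these families are similar in sequence, and their probes may share transcripts.

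Tph1, which starts serotonin synthesis, fell by 1.85 ± 0.11 and Slc6a4, the serotonin transporter, by 1.64 ± 0.10, and both calls remained in all 19 alternatives. Of 12 measured genes of the MAS-related receptor family 4 fell (Mrgprb1, Mrgpra4, Mrgpra3 and Mrgpra2b, the last not called under normexp or on the slides that held both groups) and none rose, with a median difference of -0.24. Phgdh, Shmt2, Mthfd1l and Shmt1, enzymes of serine synthesis and one-carbon metabolism picked singly, were called higher: Phgdh by 0.68 ± 0.12, Shmt2 by 0.53 ± 0.11, Mthfd1l by 0.42 ± 0.07 and Shmt1 by 0.35 ± 0.08. With scaling on the spike-in probes these were 0.47, 0.32, 0.21 and 0.14 and none was called, and without any 1 Epo array none of the 4 was called.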
